A study of Mus musculus with 6 samples.

Results

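The 8 transcription factor genes Olig1, Olig2, Myrf, Nkx2-2, Nkx6-2, Zfp488, Zfp536 and St18, which act in the oligodendrocyte lineage and do not belong to the SOX family, were taken by symbol from a table of read counts for 31276 gene symbols, and all 8 were found in it. The table holds 6 libraries of polyadenylated RNA from C57BL/6 mouse brain at postnatal day 14. In 3 libraries, labelled PRMT5 olig2cre KO (KO), Prmt5, an arginine methyltransferase gene, was targeted with Cre recombinase under control of Olig2. The other 3 came from wild-type (WT) mice. The labels name neither the Prmt5 allele nor the kind of Olig2-Cre line, so they do not say whether Cre occupies the Olig2 locus, and they name no Cre-only control. Nor do they state that each sample is a separate animal, so the p-values below refer to sample-to-sample spread, which may be partly technical.

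Oligodendrocytes, the myelin-forming cells of the brain, arise from dividing precursors through a cascade of transcription factors. Olig1 and Olig2 are neighbouring basic helix-loop-helix genes expressed throughout the lineage, Nkx2-2 and Nkx6-2 are homeodomain genes, and Myrf encodes a membrane-bound factor that cuts itself free and switches on myelin genes as the cells mature. Zfp488, Zfp536 and St18 encode zinc finger proteins. The level of such a gene in whole tissue depends on the number of cells that express it and on the RNA per cell, and in bulk samples fewer cells and less RNA per cell cannot be told apart.

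The 6 libraries held 15089140 to 16872925 counts. Prmt5 itself stood at 68.2, 68.4 and 81.6 CPM (counts per 1000000, on totals scaled for library composition) in KO replicates 1 to 3, against 90.8, 90.4 and 91.8 CPM in WT replicates 1 to 3. Every KO library lay below every WT library, but Prmt5 was not called by edgeR's quasi-likelihood test without the replicate number as a block (Benjamini-Hochberg adjusted p = 0.232) and was called with it (0.0379). Gabra6, which granule cells of the cerebellum express as a GABA receptor subunit, was at 80.0, 0 and 22.1 CPM in the KO libraries, against 63.8, 0 and 0 CPM in the WT libraries, so KO replicates 1 and 3 and WT replicate 1 are called here the libraries with cerebellar transcripts, and the others, with 0 reads of Gabra6, those without. Xist, which marks female tissue, stood at 634, 603 and 0.254 CPM in KO, against 0.25, 509 and 0.241 CPM in WT.

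Of the 8 factors, 5 fell in KO (Olig1, Olig2, Myrf, Nkx2-2 and Zfp488) and 0 rose, at an adjusted p under 0.05 in the edgeR quasi-likelihood fit of 16592 genes. In that fit 0.958% of all tested genes were called lower and 0.241% higher. For 7 of the 8 factors every KO library was below every WT library, a separation that 7.99% of tested genes showed. All 8 log2 fold changes (KO over WT) were negative, with a median of -0.95, against 0.01 over all tested genes. The summed level of the 8 genes was 184.9, 167.4 and 171.1 CPM in KO replicates 1 to 3, against 378.5, 330.6 and 332.1 CPM in WT replicates 1 to 3. With the replicate number as a block 7 of the 8 were called lower, all but St18, where 2.38% of all tested genes were. DESeq2 called 6 of the 8 lower, adding Nkx6-2, and 1.52% of the genes it tested.

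The 300 bases around the RefSeq transcription start of the factors that fell are shown for the 3 of them found in the RefSeq promoter table (build GRCm38.p6), so that the starts of genes lowered in the same libraries can be read side by side. Promoters were found for 5 of the 8 factors (Olig2, Nkx2-2, Nkx6-2, Zfp488 and Zfp536), and those of Olig1, Myrf and St18 were not used here. Each runs 5′ to 3′ along the gene's strand, at chr16:91225300-91225599 on the plus strand for Olig2, chr2:147186353-147186652 on the minus strand for Nkx2-2 and chr14:33978715-33979014 on the minus strand for Zfp488. That of Nkx2-2 lies inside the gene's GENCODE span (147177546 to 147194243), so it is not at the outermost annotated start. The same holds for that of Zfp536. Capitals mark matches, on either strand, to CANNTG (the E-box bound by basic helix-loop-helix factors such as OLIG1 and OLIG2), ACAAAG or ACAATG (SOX factors), CTGGCAC (MYRF), AAGTGG (NKX2 factors), TAATTA (homeodomains) or TATAAA.
Olig2: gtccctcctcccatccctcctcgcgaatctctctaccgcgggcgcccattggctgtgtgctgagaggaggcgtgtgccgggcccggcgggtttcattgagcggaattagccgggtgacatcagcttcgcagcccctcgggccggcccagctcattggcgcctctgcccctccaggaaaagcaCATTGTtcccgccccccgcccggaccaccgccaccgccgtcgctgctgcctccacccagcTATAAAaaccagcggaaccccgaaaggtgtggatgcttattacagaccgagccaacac
Nkx2-2: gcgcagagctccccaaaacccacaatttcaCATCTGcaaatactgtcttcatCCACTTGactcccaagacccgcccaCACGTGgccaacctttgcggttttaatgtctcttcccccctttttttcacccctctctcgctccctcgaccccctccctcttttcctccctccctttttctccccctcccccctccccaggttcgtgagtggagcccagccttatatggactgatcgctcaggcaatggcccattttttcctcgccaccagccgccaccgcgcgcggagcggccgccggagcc
Zfp488: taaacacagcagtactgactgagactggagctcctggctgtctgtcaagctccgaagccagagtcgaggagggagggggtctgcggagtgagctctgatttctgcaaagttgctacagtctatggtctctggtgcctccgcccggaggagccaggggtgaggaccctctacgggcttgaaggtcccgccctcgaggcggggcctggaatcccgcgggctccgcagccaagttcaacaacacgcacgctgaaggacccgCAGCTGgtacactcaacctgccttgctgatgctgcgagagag
The E-box letters occurred at 3 places in the Nkx2-2 promoter, the second of which overlaps the NKX2 letters, at 1 place in that of Zfp488 (CAGCTG) and at 0 in that of Olig2. They occurred in 72.3% of all 32544 promoters of this length. The Olig2 promoter held 1 match to the SOX letters (in 28.4% of all promoters) and 1 to TATAAA (in 13.6%). The Nkx6-2 promoter, not printed, held 1 E-box match, and that of Zfp536 held 1 match each to the NKX2 letters (in 16.8% of promoters) and to TAATTA (in 5.29%). The MYRF letters, in 5.04% of promoters, were in 0 of the 5. These matches describe letters only and say nothing on whether a factor binds there.

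Olig1 and Olig2 lie 41094 bases apart on chromosome 16, both on the plus strand (mm10; Olig2 at 91225457 to 91228677, Olig1 at 91269772 to 91271933). Olig1, a factor that in mouse promotes oligodendrocyte maturation, stood at 101.3, 99.9 and 104.5 CPM in KO replicates 1 to 3, against 168.5, 164.4 and 169.8 CPM in WT replicates 1 to 3. The libraries of each group lay within a few percent of each other (coefficient of variation 2.33% in KO and 1.67% in WT), so that Olig1 had the narrowest spread of the 8 factors in both groups. Its level in KO was 60.8% of that in WT (log2 fold change -0.72, SE 0.0801, adjusted p = 0.00108 by edgeR's quasi-likelihood test). Olig2, which specifies the lineage and here also drives the Cre, stood at 24.9, 26.1 and 31.6 CPM in KO, against 54.4, 53.3 and 46.8 CPM in WT. The highest KO library and the lowest WT library, both replicate 3, did not overlap, and the KO level was 53.5% of the WT level (log2 fold change -0.90, SE 0.120, adjusted p = 0.00329 in the same test).

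The other genes beside this pair on the chromosome were not called. Ifnar2, an interferon receptor gene on the far side of Olig1, stood at 18.9, 19.5 and 15.0 CPM in KO, against 16.2, 16.6 and 14.8 CPM in WT (log2 fold change 0.16, SE 0.141, adjusted p = 0.752 in the edgeR test). The next protein-coding gene on the Olig2 side, 4932438H23Rik, had at most 0.889 CPM in KO and at most 1.37 CPM in WT (adjusted p = 0.817 in the same test). A long noncoding RNA, Gm15966, overlaps 157 exonic bases of Olig1 on the opposite strand and is not a row of the count table. The strand setting of the counting is not given in the sources used here, so reads from opposite strands cannot be told apart.

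**Figure D1:**
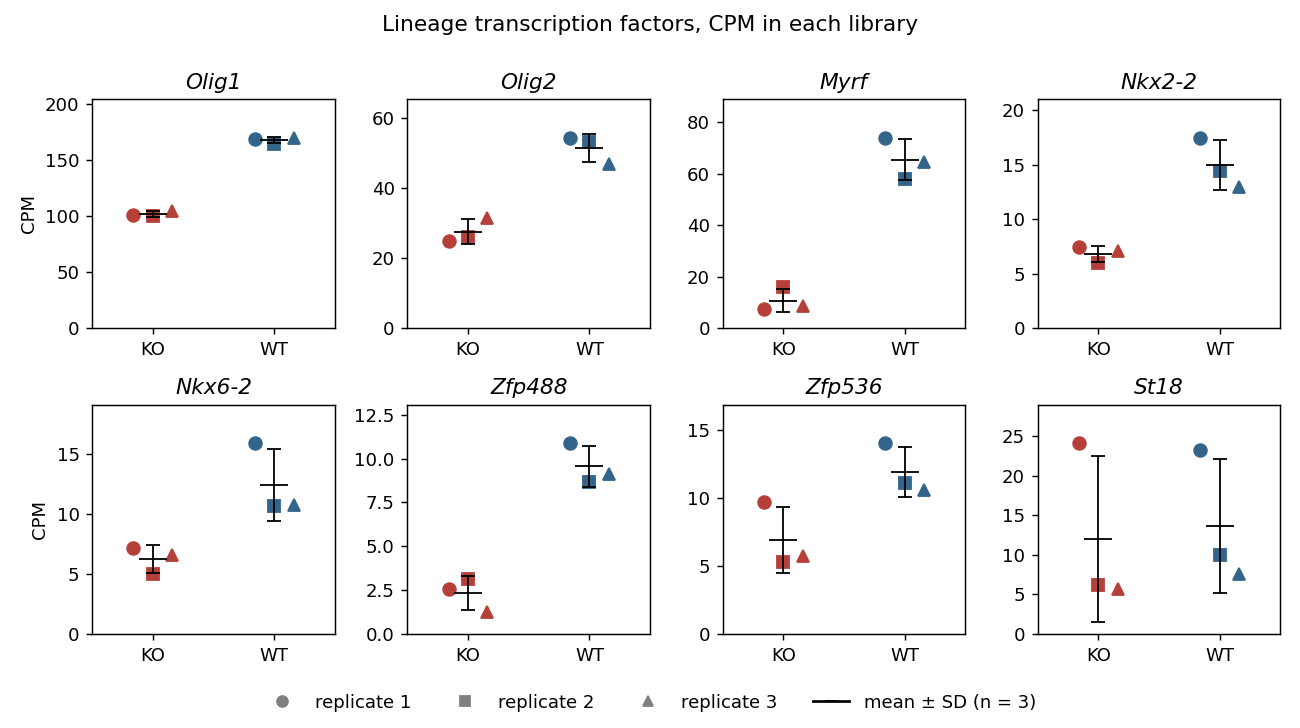
Level of each of the 8 factors in CPM (vertical axes start at 0 and differ between panels) in the 3 KO and 3 WT libraries. Symbols give the replicate number, and black lines the mean with its SD. KO and WT libraries separate in every panel but that of St18, where replicate 1 is highest in both groups.

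Myrf, the factor that myelin gene transcription depends on, had the largest difference of the 8. It stood at 7.60, 15.9 and 8.58 CPM in KO replicates 1 to 3, against 74.1, 58.0 and 64.4 CPM in WT replicates 1 to 3. The highest KO library, replicate 2, was still far below the lowest WT library, which was also replicate 2. The KO level was 16.3% of that in WT, a 6.13-fold lower level (log2 fold change -2.62, 95% interval -3.13 to -2.10, adjusted p = 0.000217 by edgeR's quasi-likelihood test), and Myrf ranked 22 by p among all tested genes. Its flanking genes on chromosome 19 were not called. Tmem258, which ends 447 bases from Myrf (10208272 to 10240748, minus strand), stood at 26.4 to 33.5 CPM in KO, against 31.0 to 32.3 CPM in WT. Dagla, a lipase gene of endocannabinoid synthesis, stood at 122 to 131 CPM in KO, against 121.7 to 142.1 CPM in WT, and the adjusted p of these neighbours was 0.855 and 0.942 in the edgeR test.

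The Myrf fold change was of different size in 2 subsets of the libraries, a difference that did not pass the adjusted threshold. Its log2 fold change was -3.20 among the libraries with cerebellar transcripts (KO replicates 1 and 3 against WT replicate 1) and -1.95 among those without (KO replicate 2 against WT replicates 2 and 3). Each of these fits has 1 lone sample that is assumed to vary like the rest. The difference between the 2 fold changes was tested as an interaction, added after the data were seen, and had an unadjusted p of 0.000639 and an adjusted p of 0.964 by edgeR's quasi-likelihood test, with 2 residual degrees of freedom. For Zfp488 the log2 fold changes were -2.50 and -1.50 in these libraries, with an unadjusted p of 0.0959 for the interaction in the same test. For Olig2 the values were -0.95 and -0.94, and for Olig1 -0.72 and -0.74. Olig1 was not called in the libraries with cerebellar transcripts alone (adjusted p = 0.182 in the edgeR test).

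Zfp488 encodes a zinc finger corepressor that promotes oligodendrocyte differentiation in mouse. It stood at 2.55, 3.15 and 1.27 CPM in KO replicates 1 to 3, against 10.9, 8.65 and 9.14 CPM in WT replicates 1 to 3. These are 42, 50 and 20 reads in KO, against 174, 128 and 152 reads in WT, so each KO value carries a wide counting error. The groups did not overlap, and the KO level was 24.4% of the WT level (log2 fold change -2.03, 95% interval -2.66 to -1.41, adjusted p = 0.00457 in the edgeR test). Its nearest neighbour on chromosome 14, Rbp3, a retinoid-binding protein gene 2853 bases away, had at most 0.504 CPM in KO and at most 0.125 CPM in WT.

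Of the homeodomain genes, Nkx2-2 fell and Nkx6-2 was not called. Nkx2-2, which in mouse promotes the step from precursor to myelinating cell, stood at 7.42, 5.99 and 7.12 CPM in KO replicates 1 to 3, against 17.5, 14.5 and 12.9 CPM in WT replicates 1 to 3. No KO library reached the lowest WT library, replicate 3, and the KO level was 45.8% of that in WT (log2 fold change -1.13, SE 0.170, adjusted p = 0.00756 by edgeR's quasi-likelihood test). Its antisense RNA Nkx2-2os, which shares 278 exonic bases with it on the opposite strand, stood at 3.04, 2.65 and 2.03 CPM in KO, against 4.81, 3.99 and 5.17 CPM in WT. These ranges did not overlap either, but Nkx2-2os was not called (log2 fold change -0.85, SE 0.245, adjusted p = 0.212 in the edgeR test), and reads may be shared between the 2 genes.

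Nkx6-2, a homeodomain gene needed for normal myelin sheaths at the edges of the node, stood at 7.18, 4.98 and 6.61 CPM in KO replicates 1 to 3, against 15.9, 10.6 and 10.8 CPM in WT replicates 1 to 3. The groups did not overlap, and replicate 1 was the highest of both. The KO level was 50.4% of that in WT, but Nkx6-2 was not called (log2 fold change -0.99, SE 0.213, adjusted p = 0.0586 by edgeR's quasi-likelihood test). With the replicate number as a block the adjusted p was 0.00135 in the edgeR test, and with a term for cerebellar transcripts it was 0.00349. DESeq2 gave an adjusted p of 0.00367, and the lowest and highest values without each library in turn were 0.0455 (without KO replicate 1) and 0.236 (without KO replicate 2).

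The 3′ ends of Nkx6-2 and of Inpp5a, a phosphatase gene on the opposite strand, share 246 of the 1907 exonic bases of Nkx6-2. Inpp5a stood at 78.7, 47.4 and 73.4 CPM in KO, against 83.6, 45.5 and 56.7 CPM in WT, with its lowest value in replicate 2 of each group. Its adjusted p was 0.916 by edgeR's quasi-likelihood test. How many reads of Nkx6-2 came from these shared bases was not tested.

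Zfp536 and St18, the other zinc finger genes, were both highest in replicate 1 of each group. Zfp536, known in mouse cells as a repressor of neuronal differentiation genes, stood at 9.73, 5.29 and 5.78 CPM in KO replicates 1 to 3, against 14.05, 11.2 and 10.6 CPM in WT replicates 1 to 3. The highest KO library, replicate 1, lay just below the lowest WT library, replicate 3, so the groups did not overlap. The log2 fold change was -0.78 (SE 0.236) and the gene was not called (adjusted p = 0.253 by edgeR's quasi-likelihood test). Within each replicate number KO was lower, and with the replicate number as a block the adjusted p was 0.00796 in the edgeR test. Without KO replicate 1 it was 0.0185, with a log2 fold change of -1.11, and without each other library in turn it ran up to 0.549.

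St18, a zinc finger gene of the Myt1 family, did not separate the groups. It stood at 24.1, 6.17 and 5.65 CPM in KO replicates 1 to 3, against 23.3, 10 and 7.58 CPM in WT replicates 1 to 3. Replicate 1 was 3.91-fold above the next library in KO and 2.33-fold above it in WT, and the range of the WT libraries lay within that of the KO libraries. The log2 fold change was -0.18, with a 95% interval of -1.37 to 1.004 that allows both a lower and a higher level in KO (adjusted p = 0.940 by edgeR's quasi-likelihood test). Its sign turned without WT replicate 1 (0.45), KO replicate 2 (0.13) or KO replicate 3 (0.16), and without KO replicate 1 the log2 fold change was -1.20 (adjusted p = 0.192 in the edgeR test). KO was below WT in 2 of the 3 replicate numbers, and with the block the adjusted p was 0.370 in the edgeR test.

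The remaining factors are spread over the genome (mm10). Nkx2-2 is on chromosome 2 at 147177546 to 147194243, Nkx6-2 on chromosome 7 at 139579376 to 139582797, Zfp488 on chromosome 14 at 33967070 to 33978764 and Zfp536 on chromosome 7 at 37472135 to 37773641, all on the minus strand, and St18 is on chromosome 1 at 6487231 to 6860940 on the plus strand. Among their protein-coding neighbours, Pwwp2b beside Nkx6-2, Tshz3 and Uri1 beside Zfp536, and Pcmtd1 beside St18 had log2 fold changes from -0.24 (Tshz3) to 0.03 (Pwwp2b), and none of these 4 was called (adjusted p from 0.636 to 0.963 by edgeR's quasi-likelihood test).

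**Figure D2:**
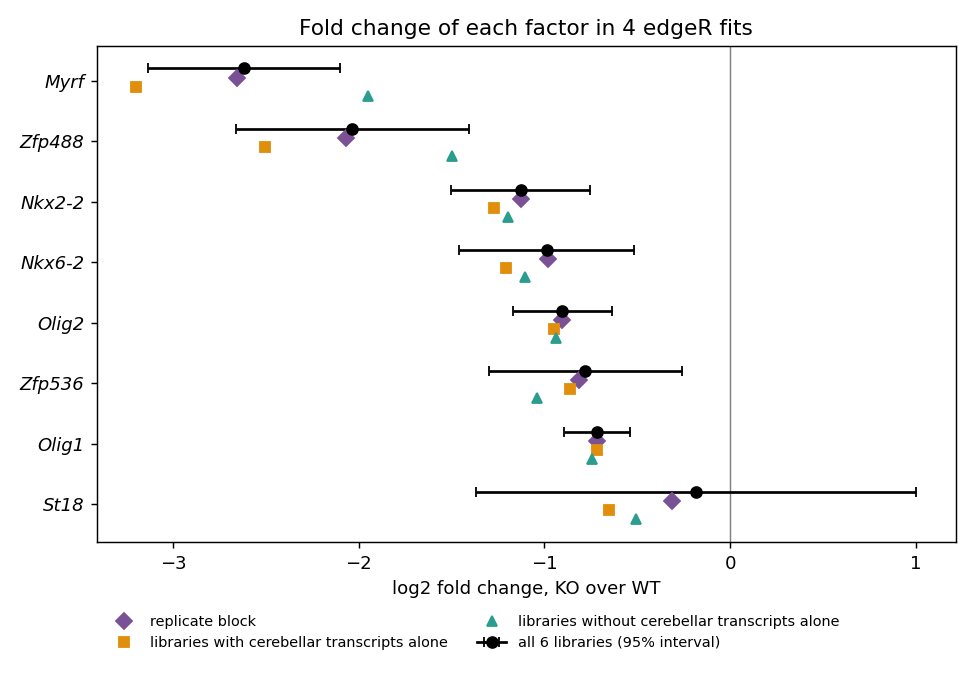
Log2 fold change of each factor, KO over WT (horizontal axis), from the edgeR fit of all 6 libraries with its 95% interval (black), with the replicate block, and among the libraries with or without cerebellar transcripts. Myrf and Zfp488 lie furthest to the left and move apart between the fits with and without cerebellar transcripts, and the interval of St18 spans 0.

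The genes whose levels across the 6 libraries were most like that of St18 were Exph5 (Pearson r = 0.999), Maml3 (0.999), a coactivator gene of Notch signalling, Mtus1 (0.996), Slc4a4 (0.995), a bicarbonate transporter gene, and Aqp4 (0.992), the water channel of astrocytes. This search was added after the values of St18 were seen, ranks 15708 genes by 6 libraries, and is a description. Aqp4 stood at 325, 184 and 159 CPM in KO, against 342, 220.0 and 190 CPM in WT, and had no called difference (adjusted p = 0.873 by edgeR's quasi-likelihood test). Myt1, the relative of St18 that marks precursors, was also highest in replicate 1 of both groups, at 23.5, 13.7 and 11.5 CPM in KO, against 23.7, 13.4 and 10.9 CPM in WT. Of the libraries with cerebellar transcripts, replicate 1 of KO and of WT had the higher Gabra6 levels (80.0 CPM in KO and 63.8 CPM in WT) and KO replicate 3 had 22.1 CPM, and the part of cerebellar transcripts in the levels of St18 was not tested. The levels of longer transcripts also differed between libraries. The Spearman correlation, across 13941 genes, between exonic length and how far a library's level lay from the 6-library mean was 0.211, -0.133 and -0.433 in KO replicates 1 to 3, against 0.239, 0.118 and 0.119 in WT replicates 1 to 3. Zfp536, Myrf and St18 are longer than 87.5%, 84.8% and 71.8% of these genes, the highest 3 of the 8 factors. With offsets adjusted for length their log2 fold changes were -0.71 for Zfp536 and -0.16 for St18, neither of them called, and -2.54 for Myrf, which was called.

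Per kilobase of exonic length, which allows levels of different genes to be set beside each other, the order of the factors was not the same in the groups. In KO the mean levels ran from Olig1 (47.1 CPM per kb) and Olig2 (10.9) through Nkx6-2 (3.28), Nkx2-2 (2.38), St18 (1.85) and Myrf (1.25) to Zfp536 (0.752) and Zfp488 (0.541). In WT they ran from Olig1 (77.5 CPM per kb) and Olig2 (20.4) through Myrf (7.65), Nkx6-2 (6.51), Nkx2-2 (5.204), Zfp488 (2.22) and St18 (2.11) to Zfp536 (1.29). Olig1 was above Olig2, and Olig2 above the third gene, in every library of each group. In KO, the ranges of neighbours overlapped from Nkx2-2 downward. In WT, Myrf overlapped Nkx6-2, Nkx6-2 overlapped Nkx2-2, and the lowest 3 genes overlapped their neighbours in that order. Myrf ranked 6 in KO and 3 in WT, and made up 4.11%, 9.48% and 5.01% of the summed CPM of the 8 factors in KO replicates 1 to 3, against 19.6%, 17.6% and 19.4% in WT replicates 1 to 3. Exonic length here is that of all GENCODE isoforms together, which can differ from the exons the authors counted over.

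**Figure D3:**
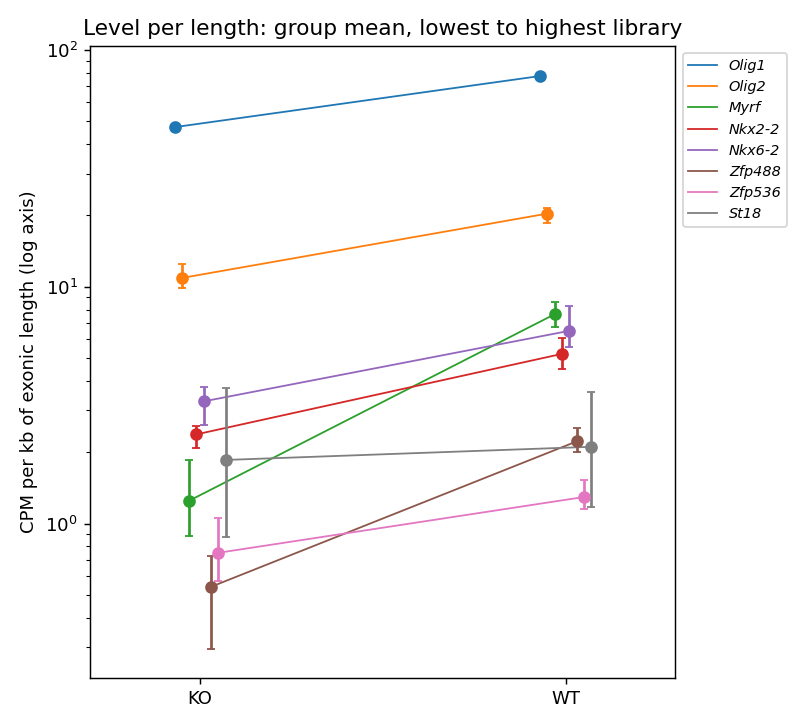
Level per kilobase of exonic length (log axis) of each factor, with points at the group mean and bars from the lowest to the highest library, KO on the left and WT on the right. The lines of Myrf and Zfp488 are the steepest, and that of St18 is nearly flat.

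Set against Olig2 in the same library, Myrf and Zfp488 had lower ratios in every KO library than in any WT library. Olig2 also drives the Cre, and the labels do not say whether Cre occupies its locus. A ratio to Olig2 would therefore carry any effect of the Cre on Olig2 itself, which was not tested. The share of all tested genes with a separated ratio to Olig2 was not computed. The log2 CPM of Myrf minus that of Olig2 was -1.70, -0.71 and -1.86 in KO replicates 1 to 3, against 0.44, 0.12 and 0.46 in WT replicates 1 to 3. The KO minus WT difference in this log ratio was -1.77, and for Zfp488 it was -1.16, with values of -3.23, -3.0001 and -4.50 in KO, against -2.31, -2.60 and -2.34 in WT. For both, every KO library lay below every WT library, and the exact two-sided permutation test gave p = 0.1, the smallest that 3 against 3 allows. Adjusted over the 7 ratios tested this was 0.35, and the design cannot reach 0.05. The other 5 ratios overlapped between groups. Their KO minus WT differences were 0.19 for Olig1, -0.21 for Nkx2-2, -0.06 for Nkx6-2, 0.09 for Zfp536 and 0.56 for St18, with exact permutation p from 0.2 to 1. This test is unpaired. Within replicate numbers 1 to 3 the KO minus WT differences were -0.10, -0.23 and -0.28 for Nkx2-2, -0.0092, -0.047 and -0.13 for Nkx6-2, and 1.17, 0.34 and 0.15 for St18, each of 1 sign, while those of Olig1 and Zfp536 were of mixed sign.

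**Figure D4:**
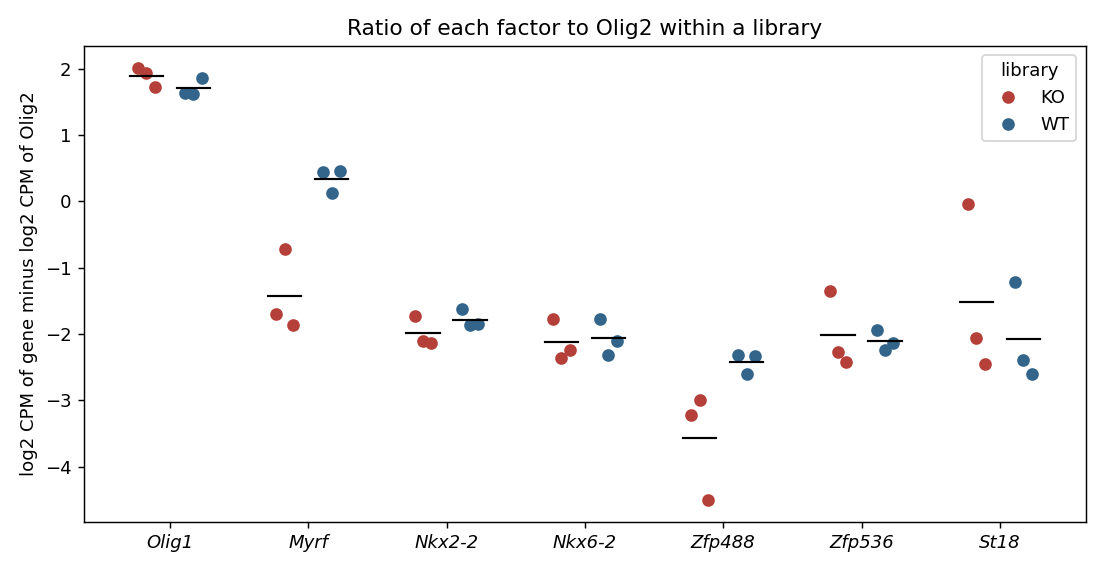
Log2 CPM of each factor minus log2 CPM of Olig2 (vertical axis) in the KO and WT libraries, with a black line at each group's mean. The KO and WT points separate for Myrf and Zfp488 and overlap for the other 5 factors.

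Pdgfra, the receptor gene that marks precursors, fell to 56.0, 49.7 and 50.5 CPM in KO, against 90.6, 89.1 and 92.7 CPM in WT (log2 fold change -0.80, SE 0.0877, adjusted p = 0.000996 by edgeR's quasi-likelihood test). Olig2 relative to Pdgfra differed by -0.10 on the log2 scale (KO minus WT), with overlapping groups and an exact permutation p of 0.7 (0.8 adjusted over 8 ratios). Relative to the summed level of 10 precursor markers, 6 of the 8 factors had every KO library below every WT library, each with an exact permutation p of 0.1 (0.133 adjusted over 8 ratios). Their KO minus WT differences were -0.49 for Olig2, -2.25 for Myrf, -0.69 for Nkx2-2, -0.55 for Nkx6-2, -1.64 for Zfp488 and -0.39 for Zfp536, while Olig1 (-0.30) and St18 (0.07) overlapped. The share of all tested genes whose ratio to this sum separates was not computed, so the count has no background beside it. Relative to Pdgfra alone, Myrf and Zfp488 separated in this way, and the other factors overlapped. Over the 10 precursor markers the summed level was 616, 486 and 456 CPM in KO, against 746, 686 and 638 CPM in WT. Most of this sum came from Ptprz1, at 372, 276 and 267 CPM in KO, against 400, 376 and 341 CPM in WT. Ptprz1 overlapped between groups and was not called (adjusted p = 0.524 in the edgeR test). Of the 10, 1 (Pdgfra) was called lower and 0 higher in the edgeR fit, and all 10 had negative log2 fold changes, with a median of -0.44. With the replicate block 6 of the 10 were called lower, and by DESeq2 2. Of all genes tested in each fit, edgeR without the block called 0.958% lower, the block fit 2.38% and DESeq2 1.52%.

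Genes known to be activated by MYRF were lower in KO. Of 12 such genes, 11 fell and 0 rose in the edgeR fit, with a median log2 fold change of -2.37, against 0.01 over all tested genes, and 9 of the 12 are also on a list of 12 mature oligodendrocyte markers. All 12 of that list fell (median -2.59), as did 9 of 10 markers of newly formed oligodendrocytes (median -1.05), and 0 of either rose. In the same fit 0.958% of all tested genes were called lower and 0.241% higher. Mbp, which encodes myelin basic protein, stood at 632, 964 and 470 CPM in KO replicates 1 to 3, against 5632, 4075 and 4095 CPM in WT replicates 1 to 3. Mog, a surface protein of myelin, stood at 9.67, 21.1 and 9.21 CPM in KO, against 105.1, 71.3 and 82.7 CPM in WT. As for Myrf itself, replicate 2 was the highest KO library and the lowest WT library for both genes. The myelin genes Mag, Mobp, Cnp, Opalin and Ermn had log2 fold changes from -2.69 (Mag) to -2.06 (Cnp), without overlap between groups. Dusp15, a phosphatase gene, had a smaller log2 fold change (-0.77, SE 0.129, adjusted p = 0.0151 by edgeR's quasi-likelihood test). Nfasc, whose product assembles the node of Ranvier in neurons and oligodendrocytes, had a log2 fold change of -1.23 and Trf, the transferrin gene, one of -1.51. The gene not called was Rffl, a ubiquitin ligase gene, with 6.93, 10.8 and 9.40 CPM in KO, against 12.9, 12.6 and 11.97 CPM in WT (adjusted p = 0.417 in the same test).

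Of 34 further regulators of the lineage, 33 were tested, 1 fell and 0 rose, where 0.958% of all tested genes were called lower and 0.241% higher, and the median log2 fold change was -0.07. Of these genes, 5 had an unadjusted p under 0.05, and DESeq2 and the replicate block each called 2. Of all genes tested in each fit, DESeq2 called 1.52% lower and the block fit 2.38%. The gene that fell was Tmem98, whose product binds MYRF and holds back its self-cleavage, at 4.13, 3.91 and 4.32 CPM in KO, against 9.56, 8.18 and 7.04 CPM in WT (log2 fold change -1.001, SE 0.192, adjusted p = 0.0320 by edgeR's quasi-likelihood test). Zeb2, a repressor that promotes myelination in mouse and was chosen here after its values were seen, stood at 113, 116 and 78.5 CPM in KO, against 149, 161 and 143 CPM in WT. In the edgeR test it was not called without the block (adjusted p = 0.116), and it was with it (0.000578). DESeq2, without a block, also called it (adjusted p = 0.00583).

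Of the regulators named whatever their result, Hes5, Id2, Id4 and Tcf7l2 overlapped between groups and Zfp191 did not. Hes5, a Notch target that holds back differentiation, stood at 5.29, 8.57 and 7.31 CPM in KO, against 6.68, 10.8 and 5.36 CPM in WT. The inhibitor genes Id2 and Id4 had log2 fold changes of 0.02 (SE 0.0926) and 0.24 (SE 0.125), and Tcf7l2, a Wnt effector of newly formed oligodendrocytes that neurons of the thalamus also express, one of -0.05 (SE 0.102). Zfp191, the older symbol under which the table holds Zfp24, a zinc finger gene that myelination in mouse requires, stood at 27.7 to 30.2 CPM in KO, against 31.8 to 36.5 CPM in WT (log2 fold change -0.23, SE 0.109). None of these 5 was called, with adjusted p from 0.527 for Zfp191 to 0.959 for Id2 by edgeR's quasi-likelihood test.

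Of 14 family relatives of the factors, 5 passed the filter on low counts. In the edgeR fit 0 of them were called, 1 had an unadjusted p under 0.05, and DESeq2 called 0. Nkx2-1, a homeodomain gene of ventral forebrain and hypothalamus, was the one below that p, at 2.31, 3.53 and 3.05 CPM in KO, against 1.12, 1.28 and 1.44 CPM in WT (log2 fold change 1.199, SE 0.305, adjusted p = 0.137 by edgeR's quasi-likelihood test). Nkx6-1, a relative of Nkx6-2 that patterns the ventral neural tube, had at most 0.608 CPM in KO and at most 0.125 CPM in WT and was not tested. Myt1l, a neuronal relative of St18, stood at 156 to 201 CPM in KO, against 196 to 212 CPM in WT (adjusted p = 0.668 in the same test).

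**Figure D5:**
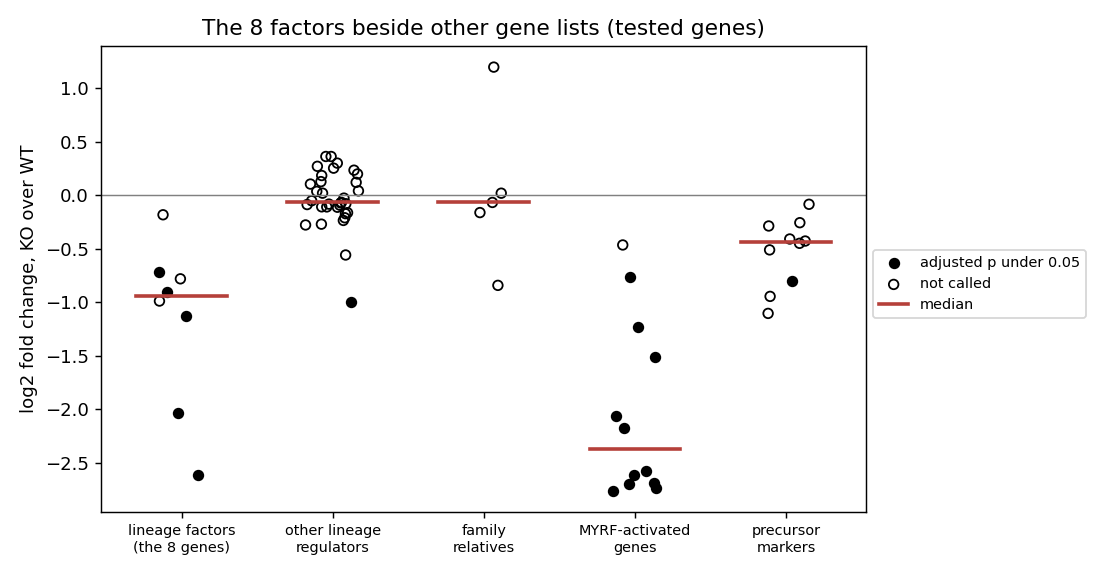
Log2 fold change, KO over WT (vertical axis), of the tested genes of 5 lists, with filled points at an adjusted p under 0.05 and a red line at the median. The median of the 8 factors, -0.95, lies between those of the MYRF-activated genes, -2.37, and the other lineage regulators, -0.07, while single genes of these lists overlap.

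Some of the 8 factors are also expressed outside the oligodendrocyte lineage, and markers of other cell types were read beside them. The summed level of 13 markers of brainstem, hypothalamic and serotonergic neurons, where Nkx2-2 is also expressed, was 89.0, 70.3 and 100.8 CPM in KO replicates 1 to 3, against 75.7, 40.0 and 54.2 CPM in WT replicates 1 to 3. The ranges overlapped. Of the 13, 11 were tested, 0 of these had a negative log2 fold change, and the median was 0.82. By edgeR 0 were called, by DESeq2 2, and 4 had an unadjusted p under 0.05. With the replicate block 3 were called higher. Of all 16592 tested genes that fit called 566 in either direction, 395 of them lower. For 10 markers of interneurons and the striatum the sum ran from 1180 to 1379 CPM in KO, against 1102 to 1222 CPM in WT, and for 10 excitatory neuron markers from 5899 to 6952 CPM in KO, against 5947 to 7405 CPM in WT. For 10 astrocyte markers it ran from 3756 to 4514 CPM in KO, against 4342 to 4513 CPM in WT. Of each of these 3 lists 0 genes were called in the edgeR fit and 1 had an unadjusted p under 0.05, and DESeq2 called 0, 1 and 0 genes. Markers of meningeal fibroblasts were higher in KO, with 6 of 9 called by edgeR, where 0.241% of all tested genes were called higher. Their sum was 370 to 604 CPM in KO, against 244 to 285 CPM in WT. For 10 genes of cerebellar granule cells the sum was 196 to 872 CPM in KO, against 157 to 759 CPM in WT. Of these 10, 0 were called by edgeR or DESeq2 or had an unadjusted p under 0.05. With the replicate block 3 were called higher, beside the same 566 calls in either direction, 395 of them lower. The part of these cell types in the levels of the factors was not tested.

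The genes whose pattern over the 6 libraries was most like the mean of the 8 factors (each as z-scored log2 CPM), ranked over 15708 genes averaging 1 CPM or more, were 2310035C23Rik (r = 0.997), Llgl1 (0.994), a cell polarity gene, Specc1 (0.994), Plat (0.992), the gene for tissue plasminogen activator, and Plekhg3 (0.992). Llgl1 stood at 51.9, 43.6 and 42.6 CPM in KO, against 76.1, 64.8 and 65.2 CPM in WT, with replicate 1 the highest in both groups. Replicate 1 was also the highest WT library for 7 of the 8 factors. For the deviations from the group means the most alike were Rnf138 (r = 0.999), Casp8ap2 (0.999), Gm15816 (0.999), Wif1 (0.996) and Mrpl52 (0.995). Such values come from 6 libraries that share their groups and are given as a description.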

How the data were processed

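RNA of mouse brain at postnatal day 14 was extracted with Trizol and sequenced as 150 bp paired-end TruSeq mRNA libraries, per the labels' protocols. Per the submitters' processing notes, the mm10 build and the tools STAR 2.3.0e, featureCounts 1.5.0, Trimmomatic 0.32, FastQC 0.11.2 and DESeq2 were used; strand and multi-mapping settings are not given in the sources used here. The authors deposited whole-number counts, named as exon counts on the UCSC knownGene set, and a normalized signal that equals those deposited counts divided by 1 factor per library.

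Counts were tested in R 4.3.3 with edgeR 4.0.16 (filterByExpr, TMM, glmQLFit and glmQLFTest, 4 residual degrees of freedom, no covariate), adjusted by Benjamini-Hochberg over 16592 genes, with a threshold of 0.05. CPM were computed here on TMM-scaled totals, log2 CPM with a prior count of 2. The SE is the log2 fold change over the root of F. The script was tested on simulated data. DESeq2 1.42.0 and limma 3.58.1 were alternatives, as were other scalings and filters, a robust spread, leaving out each library, terms for cerebellar transcripts and sex (Gabra6 or Xist above 5 CPM), and length offsets (loess, span 0.5). Positions are from GENCODE M21 on mm10. Zfp24 and Drd1 were matched by older symbols.

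The genes, lists and tests were chosen with earlier results of these data known. The named genes are the 8 factors, called and preset genes of the lists, chromosomal neighbours, and the 5 genes most like their mean; Zeb2, Rffl, Nkx2-1 and the genes most like St18 were named after their values were seen. Some genes of the lists are counted in them but not reported here by name. Pairs of libraries of 1 group differed by 6.75 to 27.4 times the counting noise, so none was treated as a duplicate. Deviations from group means correlated at 0.388, 0.390 and 0.215 between same-numbered KO and WT libraries, each above 0.1. Between differently numbered libraries they correlated at -0.425 (KO replicate 2 with WT replicate 1) to 0.105 (KO replicate 2 with WT replicate 3), the latter also above 0.1. On this ground, taken from the same data, the numbers were used as a block in an alternative fit. Same-numbered libraries did not match in all markers. Xist was at 634 CPM in KO replicate 1 and 0.25 CPM in WT replicate 1. Gabra6 was at 22.1 CPM in KO replicate 3 and 0 CPM in WT replicate 3. The other same-numbered pairs were alike in whether these genes passed 5 CPM. The main fit and the permutation tests are unpaired, and the labels do not say what a number stands for. The block leaves 2 residual degrees of freedom.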

Additional observations from a re-analysis of the deposited data

How the results depend on the processing

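The count of factors called lower was 5 to 7 of 8 under all 21 alternatives, and 0 were called higher. Myrf, Olig2, Nkx2-2 and Zfp488 kept their call in each, and Olig1 in all but the fit of libraries with cerebellar transcripts alone (-0.72, adjusted p = 0.182). Nkx6-2 was called without a filter on low counts (-0.99), with DESeq2 (-0.99), a robust spread (-0.99), the replicate block (-0.98), a cerebellum term (-1.16) or length-adjusted offsets (-1.07), and without KO replicate 1, and Zfp536 with the replicate block (-0.81) and without KO replicate 1. The fits of libraries with or without cerebellar transcripts alone each have 1 library in 1 group, and their calls are not read as support. In them Nkx6-2 was at -1.21 (with) and -1.10 (without), Zfp536 at -0.86 (with) and -1.04 (without), and Olig1 at -0.72 (with) and -0.74 (without). St18 was called in 0 of the other alternatives. The cause of these shifts was not tested.

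All genes called numbered 199, and 315 with DESeq2, 566 with the replicate block, 129 with the sex term and 1254 among libraries without cerebellar transcripts. Without each library in turn the count ran from 100 to 305, and the log2 fold changes from -0.74 to -0.70 (Olig1), -1.01 to -0.84 (Olig2), -3.02 to -2.42 (Myrf), -1.23 to -1.0009 (Nkx2-2), -1.10 to -0.77 (Nkx6-2), -2.31 to -1.74 (Zfp488), -1.11 to -0.62 (Zfp536) and -1.20 to 0.45 (St18, with 0.13, 0.16 and 0.45 turning its sign).

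Ratios to Olig2 ran, without each library in turn, from 0.12 to 0.27 (Olig1), -2.12 to -1.55 (Myrf), -0.33 to -0.13 (Nkx2-2), -0.23 to 0.085 (Nkx6-2, 0.056 without KO replicate 2), -1.45 to -0.69 (Zfp488), -0.24 to 0.30 (Zfp536) and -0.18 to 1.02 (St18). Against the summed precursor markers in place of Olig2 they were -0.30 (Olig1), -2.25 (Myrf), -0.69 (Nkx2-2), -0.55 (Nkx6-2) and -0.39 (Zfp536), and against Pdgfra -0.011 (Zfp536). The replicate block changed no call of the 8 factors other than those of Nkx6-2 and Zfp536. Depth limits Zfp488 most, at 20 to 50 reads in KO libraries.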
